A study of Arabidopsis thaliana with 3 samples.

Results

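The genes described here encode the fatty acid desaturases of Arabidopsis thaliana, taken by their locus identifiers as FAD2, FAD3, FAD4, FAD5, FAD6, FAD7, FAD8 and SSI2, 8 of the 27416 genes in the deposited files. They were chosen by name, with no threshold on their levels, though earlier results of these data were known when the set was made. RNA came from whole seedlings of wild-type Col-0, the common laboratory accession, at 3 weeks of age. The plants grew on MS plates at 23 ± 2 °C under a day of 16 h and a night of 8 h, and ribosomal RNA was removed before directional sequencing. The libraries used here form 1 group of 3, numbered 4, 5 and 6, so no condition is compared. The labels do not say whether the libraries came from separate plants, so the spread between them may be technical. The library totals differed by 0.144%, and the spread of other genes is given further below.

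Desaturases place double bonds in fatty acids and so set how fluid membranes are. In plants the soluble stroma enzyme SSI2 makes oleate from stearate while the chain is still bound to acyl carrier protein. Oleate then enters membrane lipids along a pair of routes, in the endoplasmic reticulum (ER) and in the plastid. FAD2 in the ER and FAD6 in the plastid turn oleate into linoleate, the omega-6 step. FAD3 in the ER and FAD7 and FAD8 in the plastid turn linoleate into linolenate, the omega-3 step. FAD5 and FAD4 act on palmitate in the plastid, FAD5 in the galactolipid MGDG and FAD4 in phosphatidylglycerol, where it makes a trans double bond. Linolenate is the main fatty acid of thylakoid membranes in leaves and the starting point of the hormone jasmonate.

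The membrane-bound enzymes of the omega-6 and omega-3 steps carry histidine boxes, groups of histidines that hold the iron atoms of the active site. The coding bases around the last of these boxes are shown for FAD2, FAD6 and FAD3 because they show how far the coding sequences of these enzymes have drifted around a shared motif. Each stretch is 60 bases from the TAIR10.1 assembly, on the coding strand and within 1 exon, with histidine codons in capitals. The positions are chr3:3860751-3860810 (minus strand) for FAD2, chr4:15057617-15057676 (minus) for FAD6 and chr2:12782086-12782145 (minus) for FAD3.
FAD2: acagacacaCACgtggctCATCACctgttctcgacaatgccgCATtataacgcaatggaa
FAD6: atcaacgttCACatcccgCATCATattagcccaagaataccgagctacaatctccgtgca
FAD3: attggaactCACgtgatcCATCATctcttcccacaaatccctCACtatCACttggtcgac
The stretch held 4 histidine codons in FAD2, 3 in FAD6 and 5 in FAD3. With the coding sequences aligned and gaps left out, FAD7 and FAD8 shared 85.04% of 1290 aligned bases. FAD3 shared 68.3% of 1149 bases with FAD7 and 69.6% of 1142 with FAD8. FAD2 shared 59.5% of 1008 bases with FAD6, within its range of 57.1% to 59.9% with FAD3, FAD7 and FAD8.

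All 8 genes were read at 1 FPKM or more in every library, against 17239 of 27416 genes (62.9%) in the files. FPKM is the authors' value per gene length and library size, and the file headers do not name it, so RPKM is equally possible. The median over the 8 genes was 7.01 on the log2(FPKM + 1) scale, against 2.49 over all genes. Together they made up 3138 ± 22.5 FPKM (SD, n = 3), or 0.428 ± 0.00285% of the summed FPKM. The levels are RNA levels of whole seedlings. Fewer cells of a type and less RNA per cell cannot be told apart in them, and they do not measure enzyme activity. RBCS1A, a gene of green tissue, had 10938 ± 89.8 FPKM and PYK10, a gene of roots, had 1196 ± 3.5 FPKM, so reads of both shoot and root genes were present. Library totals, recovered as whole reads from the deposited values, ran from 19892527 to 19921241 reads. Since a gene's level here is relative to its length, levels of different genes can be set side by side within a library.

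**Figure D1:**
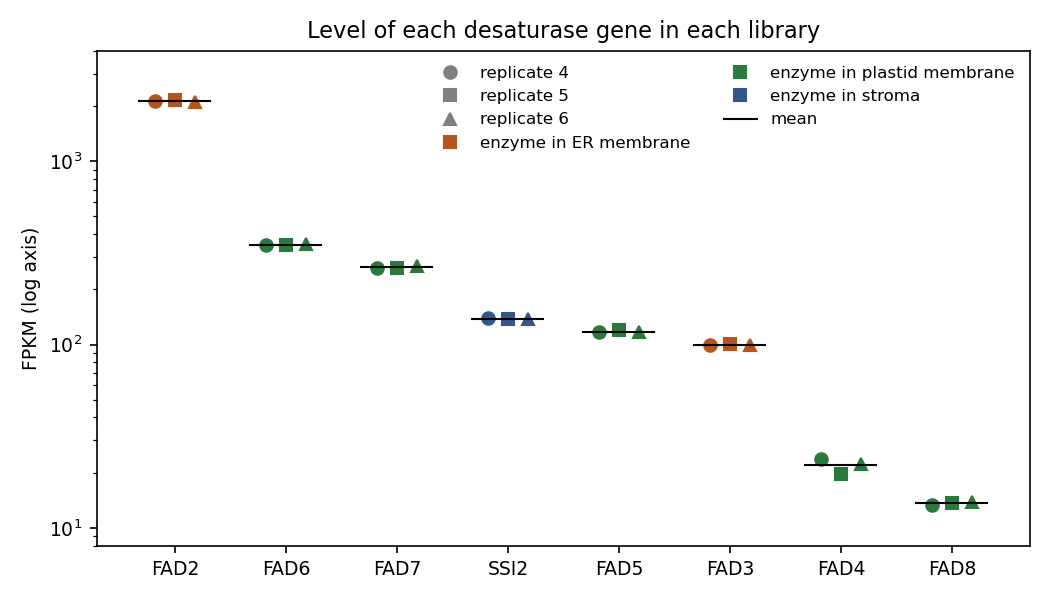
FPKM of the 8 desaturase genes in replicates 4, 5 and 6 on a log axis, ordered by mean, with the mean as a line and the colour giving where the enzyme acts. FAD2 stands at 2108 FPKM or more in every library and FAD8 at 13.8 or less, and the points of a gene lie close together apart from those of FAD4.

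The first desaturation, of stearate, is the work of SSI2 (AT2G43710, chromosome 2, 18119873 to 18122889, plus strand, 3 exons, TAIR10.1). It is also known as FAB2, and plants without it are dwarfed and have defence genes switched on. Its level was 139.9, 137.1 and 138.2 FPKM in replicates 4, 5 and 6, a mean of 138.4 ± 1.39 FPKM (SD, n = 3). The library values differed by 2.02% of the lowest. Counting error alone would give 1.44% at its 4816 reads per library, and the observed coefficient of variation was 1.0%. SSI2 had 6 relatives in the files, AAD1 to AAD6, which also encode or are predicted to encode acyl-ACP desaturases, at 66.1% to 73.3% coding identity. AAD5 was the highest of them at 40.4 ± 0.79 FPKM, followed by AAD1 at 6.83 ± 0.576 FPKM, and AAD6 was lowest at 0.43 ± 0.107 FPKM. SSI2 thus held 72.5 ± 0.797% of the summed level of the 7 genes, and AAD5 held 21.2 ± 0.34%. On the log2(FPKM + 1) scale SSI2 exceeded the sum of its 6 relatives by 1.38 ± 0.057, in 3 of 3 libraries.

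FAD2 (AT3G12120, chromosome 3, 3860251 to 3863250, minus strand) stood far above the other desaturases. Replicates 4, 5 and 6 had 2130, 2162 and 2108 FPKM, a mean of 2133 ± 27.0 FPKM. That was the 22nd highest level among all 27416 genes, with 64408 to 66092 reads per library. FAD2 alone made up 68.0 ± 0.376% of the summed level of the 8 genes. Its coding sequence of 1152 bases lies in a single exon, and its other exon is untranslated. FAD6 (AT4G30950, chromosome 4, 15056975 to 15059846, minus strand), the plastid enzyme of the same step, followed at 348.0, 347.8 and 351.7 FPKM, a mean of 349.2 ± 2.21. Its model has 10 exons, the most among the 8 genes. Every FAD2 value lay above every FAD6 value. FAD2 was 6.11 ± 0.111 times FAD6, from 5.99 to 6.22 in single libraries, and a log2 difference of 2.61 ± 0.026 held the same sign in 3 of 3. FAD2 accordingly held 85.9 ± 0.221% of the level at the omega-6 step.

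At the omega-3 step the order of the compartments was the opposite. FAD7 (AT3G11170, chromosome 3, 3499537 to 3502452, plus strand) was highest, at 262.2, 262.2 and 267.7 FPKM in replicates 4, 5 and 6, a mean of 264.0 ± 3.17. FAD3 (AT2G29980, chromosome 2, 12781524 to 12785190, minus strand), the ER enzyme, had 99.3, 100.8 and 99.1 FPKM, a mean of 99.7 ± 0.937. FAD8 (AT5G05580, chromosome 5, 1664040 to 1666531, plus strand), known as the cold-induced member of the plastid pair, had 13.4, 13.6 and 13.8 FPKM, a mean of 13.6 ± 0.189. It was the lowest of the 8 genes, though still above 69.6% of all genes. The 3 ranges did not overlap. The plastid pair summed to 277.6 ± 3.31 FPKM, 2.78 ± 0.0518 times FAD3, and the log2 difference of FAD3 from the pair was -1.47 ± 0.027, below 0 in 3 of 3 libraries. FAD7 held 70.0 ± 0.361% of the level at this step, FAD3 26.4 ± 0.361% and FAD8 3.61 ± 0.0264%.

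FAD7 and FAD8 have 8 exons each, a number also found in a gene model of FAD3. FAD7 was 19.4 ± 0.176 times FAD8, with 19.2 to 19.6 in single libraries, a log2 difference of 4.18 ± 0.012. Counting error of FAD8 alone was 4.64% at its 464 reads per library, so these SDs understate the uncertainty of the ratio. Reads of FAD7 and FAD8 can be confused where the genes are alike. Of the exonic words of 50 bases, 17 of 1697 in FAD7 (1.0%) occurred in FAD8, so most positions tell the pair apart at that length. A further 185 of the 1393 words of FAD8 occurred in the locus of PAI1 on chromosome 1, and with both sources 14.5% of its words occurred elsewhere. The part of such words in the FAD8 level was not tested.

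**Figure D2:**
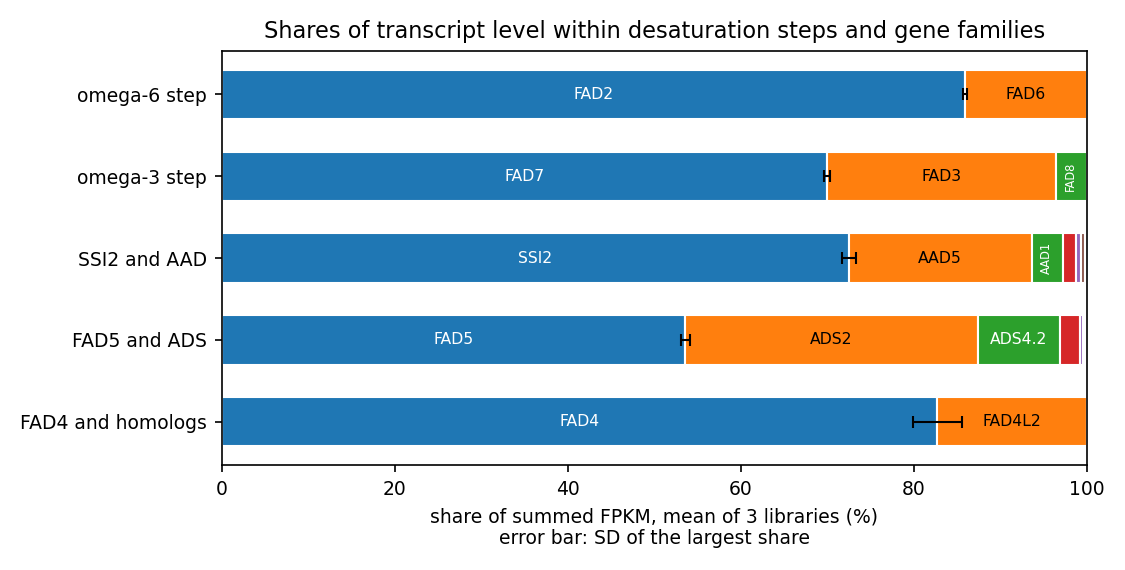
Share of summed FPKM (percent, mean of 3 libraries) held by each gene within the omega-6 step, the omega-3 step and the families of SSI2, FAD5 and FAD4, with the SD of the largest share as an error bar. FAD2 held 85.9% of the omega-6 step and FAD7 70.0% of the omega-3 step, while FAD5 held 53.6% of its family.

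The palmitate desaturases of the plastid differed from each other. FAD5 (AT3G15850, chromosome 3, 5358601 to 5361185, plus strand), also named ADS3, had 116.5, 119.4 and 117.2 FPKM, a mean of 117.7 ± 1.51. FAD4 (AT4G27030, chromosome 4, 13571813 to 13573070, plus strand), a gene of a single exon, had 23.8, 19.7 and 22.4 FPKM, a mean of 22.0 ± 2.06. FAD4 was lowest in replicate 5, where FAD5 was highest, and the ranges of the genes lay far apart. FAD5 was 5.39 ± 0.592 times FAD4, from 4.9 to 6.05 in single libraries, and the log2 difference was 2.37 ± 0.149. The model of FAD4 overlaps VPS22 (AT4G27040), on the other strand, by 186 bases. VPS22 had 21.3, 22.2 and 21.9 FPKM and was highest where FAD4 was lowest. No source used here gives the strand setting of the counting, so reads of the overlap are uncertain, and their part in the FAD4 level was not tested.

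FAD5 did not stand alone in its family. The other 8 ADS genes, which encode relatives of acyl-CoA desaturases, summed to 102.0 ± 2.99 FPKM, and FAD5 was 1.15 ± 0.0251 times that sum, a log2 difference of 0.21 ± 0.031 above 0 in 3 of 3 libraries. ADS2, known for its part in chilling tolerance, led them at 74.2 ± 2.85 FPKM, followed by ADS4.2 (AT1G06360) at 20.9 ± 0.85 FPKM. ADS3.2 (AT3G15870), which lies on the same chromosome close to FAD5, was at 0 in every library, which at its annotated length allows up to 0.123 FPKM (3 counts). FAD5 held 53.6 ± 0.538% of the family sum and ADS2 33.8 ± 0.675%. The slim margin of FAD5 depends on the gene lengths used. Behind the values lay 1381 bases for FAD5 and 1447 for ADS2, whereas their longest TAIR10.1 transcripts have 1789 and 1703. The margin was not recomputed with the longest transcripts. FAD4 had 2 homologs at 83.9% coding identity each. FAD4L2 (AT2G22890) was at 4.56 ± 0.477 FPKM, and FAD4L1 (AT1G62190) was at 0, which allows up to 0.127 FPKM. FAD4 exceeded their sum by 2.05 ± 0.25 on the log2 scale, in 3 of 3 libraries, and held 82.7 ± 2.82% of the 3 genes.

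Summed by compartment, the ER pair FAD2 and FAD3 outweighed the 5 plastid membrane enzymes. The ER sum was 2233 ± 27.9 FPKM and the plastid sum 766.5 ± 5.5 FPKM, so the ER sum was 2.91 ± 0.0552 times the plastid sum. The log2 difference of plastid from ER was -1.54 ± 0.027, below 0 in 3 of 3 libraries. This sum was made up mainly of FAD2. Within the ER the successive steps were far apart, with FAD2 at 21.4 ± 0.107 times FAD3 (log2 difference 4.41 ± 0.0073). In the plastid they were close, with FAD6 at 1.26 ± 0.007 times the sum of FAD7 and FAD8 (0.33 ± 0.0081). Counting errors of FAD3, FAD6 and FAD7 alone were 1.84%, 0.901% and 1.02%, so the SDs of both ratios understate their uncertainty. FAD2 was 15.4 ± 0.305 times SSI2, a log2 difference of 3.94 ± 0.028. Of the 11 differences compared here, each had the same sign in all 3 libraries. Flipping signs over 3 libraries allows no exact two-sided p smaller than 0.25, and for that reason no test is given.

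From the highest to the lowest the order was FAD2, FAD6, FAD7, SSI2, FAD5, FAD3, FAD4 and FAD8. The ranges of all 7 neighbouring pairs lay apart over the 3 libraries. The closest pairs were SSI2 over FAD5, at a ratio of 1.18 ± 0.0263, and FAD5 over FAD3, at 1.18 ± 0.0056. Counting errors of FAD5 and FAD3 were 1.76% and 1.84%, larger in proportion than the SD of their ratio. Such ratios depend on the gene length used. The lengths behind the deposited values were 1536 bases for FAD2, 1381 for FAD5, 1495 for FAD3 and 1150 for FAD4, whereas the longest TAIR10.1 transcripts have 1962, 1789, 1668 and 1150 bases. With the latter lengths FAD5 came to 90.9 ± 1.16 FPKM and FAD3 to 89.4 ± 0.839 FPKM, and their ranges overlapped, so these neighbours are not set apart beyond the choice of gene model. The order itself and the other 6 gaps held with those lengths.

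The spread between libraries was small for every desaturase other than FAD4. Coefficients of variation ran from 0.634% (FAD6) to 1.39% (FAD8) in 7 genes, and FAD4 had 9.36%. Behind FAD4 there were 545, 452 and 513 reads in replicates 4, 5 and 6, and their variance was 4.41 times the mean. Counting noise alone gives a ratio of 1 on average, but with 3 libraries the ratio of a single gene scatters widely. Among 6281 genes with 0.5 to 2 times as many reads, 4.7% had a ratio as high or higher, and the median ratio was 1.005. The median was 1.163 among 1094 genes with reads like SSI2, and 2.49 among 36 genes with reads like FAD2. The median of a ratio that scatters so widely can lie below its average. These medians therefore do not decide whether the spread is technical, which was not tested. FAD8, at 457, 465 and 469 reads, had a ratio of 0.0895, and 5.73% of 6301 genes with like reads had a lower one. FAD2 had a ratio of 10.4, but with its 65223 reads that amounts to a coefficient of variation of 1.27%, where counting error is 0.392%. For the other 5 genes the ratio lay between 0.262 and 1.38. The libraries had no common direction, since FAD2, FAD5 and FAD3 were highest in replicate 5, FAD6, FAD7 and FAD8 in replicate 6, and SSI2 and FAD4 in replicate 4.

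**Figure D3:**
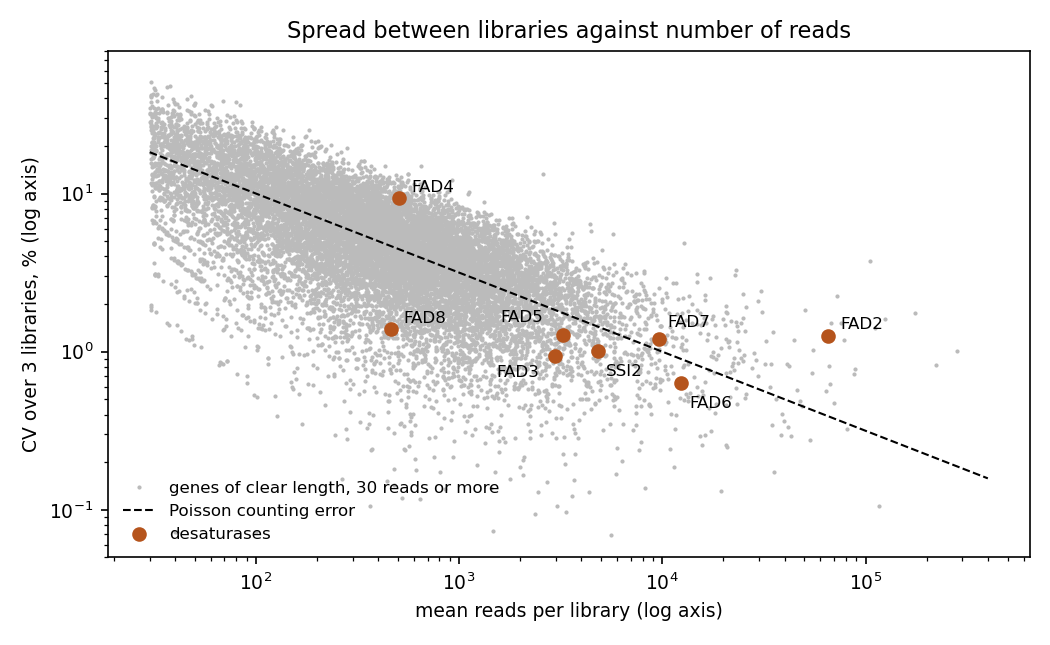
Coefficient of variation over 3 libraries (percent, log axis) against mean reads per library (log axis) for genes of clear length with 30 reads or more, with the Poisson counting error as a dashed line and the 8 desaturases in colour. FAD4 lies above the line at 9.36% and FAD8 below it at 1.39%, at similar numbers of reads.

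Genes that supply, feed or use the desaturases were described through 9 lists with 76 genes. Of these, 64 (84.2%) were at 1 FPKM or more in every library, against 62.9% of all genes. Desaturases need electrons. In the ER these come through cytochrome b5 and its reductase, and all 6 of these genes were detected, with CB5-D at 235.3 ± 5.62 FPKM, the reductase CBR1 at 118.9 ± 1.24 FPKM and CB5-A lowest at 11.2 ± 0.831 FPKM. Every gene of this list was below FAD2 in mean level. In the plastid the donor is ferredoxin, and the 6 genes of that list were all detected. FD2, the main leaf ferredoxin, had 1750 ± 15.5 FPKM, followed by FD1 at 481.2 ± 8.39 FPKM, with FDC2 lowest at 48.8 ± 2.57 FPKM. PRXQ, a peroxiredoxin on which FAD4 activity depends, had 245.7 ± 7.49 FPKM in the same list. The list medians were 6.27 for the ER and 7.65 for the plastid on the log2(FPKM + 1) scale, against 7.01 for the desaturases.

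Plastid fatty acid synthesis, which makes the chains that SSI2 acts on, had 18 of 19 genes detected and a median of 5.66. ACP4, the main acyl carrier protein of leaves, led with 377.1 ± 5.85 FPKM, then the biotin carboxylase CAC2 with 123.8 ± 0.889 FPKM. ACP5 was at 0, which allows up to 0.234 FPKM. All 15 genes that build or move membrane lipids were detected, with a median of 4.50. LPAT1, an acyltransferase of the plastid, had 77.4 ± 0.786 FPKM and MGD1, which makes the galactolipid that FAD5 works on, had 45.6 ± 0.734 FPKM. LPCAT2, which returns acyl chains to the ER lipid used by FAD2 and FAD3, was lowest at 5.48 ± 0.0756 FPKM. Jasmonate synthesis starts from linolenate, and 9 of its 11 genes were detected, with a median of 4.28. AOC2 and LOX2 led at 125.4 ± 2.53 and 111.4 ± 0.974 FPKM, and the lipase DAD1, known from anthers, was at 0, which allows up to 0.0724 FPKM.

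The lists of desaturase relatives had lower medians than the desaturases, though single relatives such as SLD1, ADS2 and AAD5 lay above FAD4 and FAD8. Of 6 acyl-ACP desaturase relatives 4 were detected (median 1.52), of 8 other ADS genes 3 (0.78), and of 2 FAD4 homologs 1 (1.24). Desaturases of sphingolipids, another class of membrane lipid, had 2 of 3 genes detected (1.52). In this order the detected shares were 66.7%, 37.5%, 50% and 66.7%, against 62.9% of all genes. SLD1 was at 113.2 ± 2.38 FPKM, SLD2 at 1.87 ± 0.273 FPKM, and the DES1-like gene at 0.0126 ± 0.0218 FPKM. That gene had a single read in replicate 5 and none in the others.

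**Figure D4:**
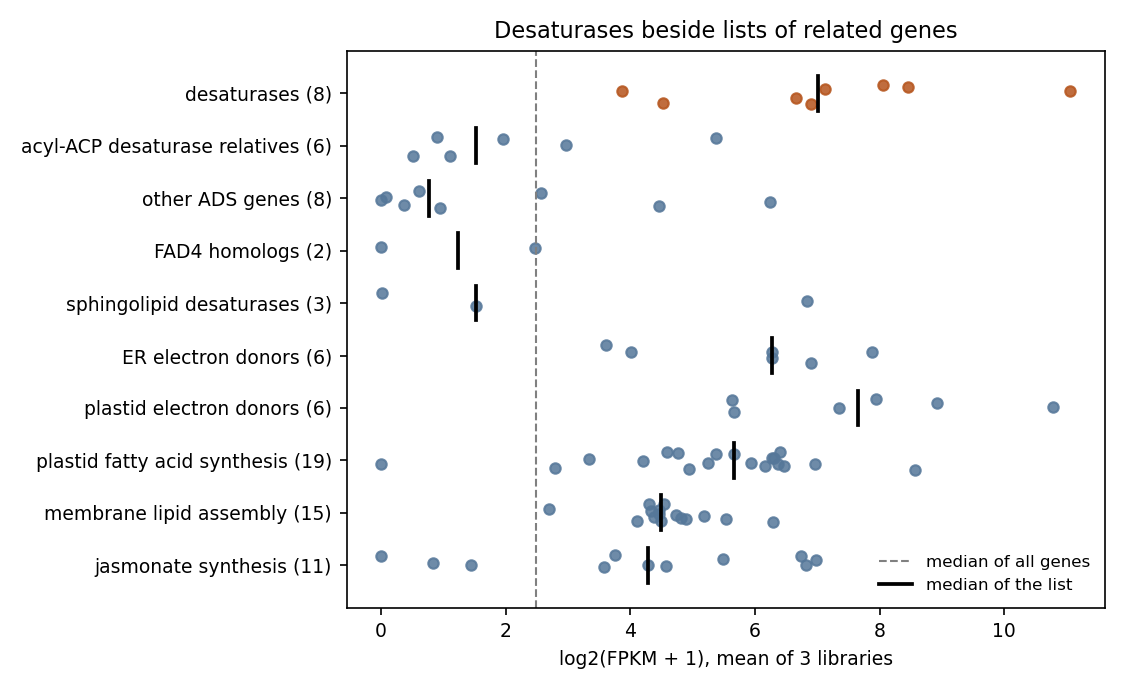
Mean log2(FPKM + 1) over 3 libraries of each gene in the desaturase group and in 9 lists of related genes, with list medians as black bars and the median of all 27416 genes (2.49) as a dashed line. The desaturase median of 7.01 lies between those of the plastid electron donors (7.65) and the ER electron donors (6.27).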

How the data were processed

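RNA-seq of 3 libraries of wild-type seedlings was used, with 1 value per gene and library. Per the submitters' processing notes, TopHat2 2.0.9, Cufflinks 2.1.1 and TAIR10 were used, with no role given. The deposited files were read as holding FPKM, since Cufflinks is named, but their headers give no unit. For strand setting and multiply mapped reads, the authors' choice is not given in the sources used here.

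Library totals and reads were recovered from the values. All 20669 genes above 0 in each library gave whole reads, within 0.0001 reads plus 1e-09 of the reads. Reads were used where the implied length exceeded 0.55 times and stayed within 1.1 times the annotated exon length, as in 19374 genes and all 8 desaturases. In a gene at 0, up to 3 counts are allowed, at the longest annotated transcript. Such limits cover counting error only.

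Means ± SD are over 3 libraries. Where an SD is smaller than counting error, as for FAD8 and FAD3, it understates the uncertainty. Log2 differences use log2(FPKM + 1), which understates differences of low genes, and sums were taken before the log. Detection of a gene meant 1 FPKM or more in all 3 libraries. There was 1 group, so no test between groups and no search for genes of like pattern was made. The genes named are the 8 desaturases, the 2 highest and the lowest of each list and the partners of each difference. PRXQ, VPS22, PAI1, PAI2 and the tissue genes RBCS1A and PYK10 fall outside this rule and were named after values were seen. The desaturases and the 9 lists were chosen with earlier results of these data known. Gene models, coding identity and words of 50 bases came from RefSeq TAIR10.1, with Biopython 1.88, pandas 2.3.3 and NumPy 2.4.6 under Python 3.11.15. Coding identity left out gaps, and words were taken within single exons. Names such as AAD1, ADS4.2 and FAD4L1 are literature names tied to locus identifiers by hand. Files hold no coordinates. Alternatives were the pseudocount, the detection level, scaling and leaving out each library. Added after seeing the data were the gene length, the spread without FAD4, and leaving out each library for the order of the 8 genes and for the list counts. Some sequence stretches are not reported here.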

Additional observations from a re-analysis of the deposited data

How the results depend on the processing

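Replicates 4, 5 and 6 were also left out in turn. With 3 libraries this cannot move a mean by as much as its SD, so it does not probe the 11 differences and 8 levels. Nor can it lower a count of genes detected in every library, or make ranges overlap that lay apart. That 7 of 7 neighbouring pairs of the 8 genes stayed apart was therefore fixed in advance. The counts were again 8 desaturases and 64 list genes. The median of the desaturases above that of all genes was 4.512, 4.515 and 4.515, against 4.514 with all libraries. Leaving out libraries for the order and the list counts was chosen after seeing the data. All 8 desaturases were also detected at 0.5 and at 5 FPKM, and 67 and 58 of the 76 list genes. With a pseudocount of 0.1 the log2 difference of FAD7 from FAD8 was 4.27 and that of FAD2 from FAD3 was 4.42, and the median of the desaturases lay 4.76 above that of all genes instead of 4.51. Against genes at a mean of 1 FPKM or more it lay 3.25 above. With the longest TAIR10.1 transcript lengths, chosen after seeing the data, the log2 differences became 2.30 for FAD2 from FAD6, -1.44 for FAD3 from FAD7 and FAD8, 4.04 for FAD7 from FAD8, 4.21 for FAD2 from FAD3, 0.48 for FAD6 from FAD7 and FAD8, 2.00 for FAD5 from FAD4, 3.65 for FAD2 from SSI2 and -1.34 for plastid from ER enzymes; here the gene length is the only change. No difference changed sign with the pseudocount of 0.1, and none of these 8 did with the longest transcript lengths. The differences of SSI2, FAD5 and FAD4 from the sums of their relatives were not recomputed with those lengths. The median SD over the 8 genes was 0.018 on the log2 scale with either pseudocount and 0.017 without FAD4. Scaling each library to a fixed sum over nuclear genes multiplied all levels by 1.37 and left ratios as they were. Depth limits FAD8 and FAD4 most, with counting errors of 4.64% and 4.46%. Differences between genes were taken within each library, while no pairing between groups was possible because there is 1 group.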

Other observations

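The 3' end of FAD8 shares sequence with another locus. Of 1393 exonic words of 50 bases in FAD8, 185 also occur on chromosome 1 between 2409882 and 2410115 (TAIR10.1), within PAI1 (AT1G07780), a gene of tryptophan synthesis. FAD8 also overlaps PAI2 (AT5G05590), the paralog of PAI1, by 61 bases on the opposite strand. PAI1 had 10.2, 10.3 and 10.8 FPKM in replicates 4, 5 and 6 and PAI2 had 3.43, 2.79 and 2.98 FPKM, against 13.4, 13.6 and 13.8 FPKM for FAD8. How the authors' counting divided reads of the shared part is not given in the sources used here, and its part in the FAD8 level was not tested.

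FAD4 shares a shorter stretch with another place. Of its 1101 exonic words of 50 bases, 26 also occur on chromosome 3 between 12648828 and 12648968, where TAIR10.1 annotates no gene. FAD2, FAD3, FAD5, FAD6 and SSI2 had no such word anywhere else in the genome.

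By reads rather than FPKM, the 8 desaturases held 0.498 ± 0.0034% of each library, or 98474 to 99849 reads.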
